A study of Mus musculus with 23 samples.

Results

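The nuclear genes for subunits of the oxidative phosphorylation machinery were followed across 4 groups of cells sorted from the mouse incisor. Members were taken by symbol: those that begin with Nduf, Uqcr, Cox4, Cox5, Cox6, Cox7, Cox8 or Atp5, with Sdha, Sdhb, Sdhc, Sdhd and Cyc1. The symbols matched 108 of 54347 gene identifiers, and 9 with a pseudogene suffix were left out, which gave 99 members. Of these, 95 are annotated as protein-coding. They comprise 36 genes of complex I, 8 complex I assembly factors, 4 genes of complex II, 9 of complex III, 20 of complex IV and 18 of complex V, including 2 identifiers that share the symbol Atp5o. The other 4, Cox6c2, Ndufa11b, Ndufb4c and Ndufs6b, are annotated as processed pseudogenes and were kept apart from the complexes. Ndufa4 and its relative Ndufa4l2 carry complex I symbols but were placed with complex IV, where the Ndufa4 protein is now known to sit.

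Cells came from the labial cervical loop, the epithelial fold at the growing end of the lower incisor, of mice at postnatal day 2. They carried a fluorescent reporter of Sox2, a transcription factor that marks dental epithelial stem cells, and were sorted by it into Sox2-positive and Sox2-negative cells. Smart-seq2, a method that copies whole polyadenylated transcripts, was applied in 2 batches handled on separate days with different mice. Batch A gave 6 libraries of Sox2-negative and 6 of Sox2-positive cells, and batch B gave 4 and 7. The labels name no treatment. The labels do not say whether libraries of 1 batch came from separate mice, so p-values measure the spread between libraries, which may be technical.

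Oxidative phosphorylation takes place on the inner mitochondrial membrane. Complex I and complex II pass electrons from NADH and succinate to ubiquinone. Complex III passes them on to cytochrome c, and complex IV passes them to oxygen. Complex V uses the proton gradient made by complexes I, III and IV to form ATP. Most subunits are encoded in the nucleus and a small core of complexes I, III, IV and V in the mitochondrial genome, so each of these 4 complexes draws on both genomes. Proliferating and stem cells of many tissues are known to rely on glycolysis beside this pathway.

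Total estimated counts ran from 2305778 to 9541443 per library. Levels are given in CPM, that is, counts relative to each library's total after adjustment by the TMM method, and differences as log2 fold changes of the edgeR quasi-likelihood test with their standard error (SE). A gene was called at a Benjamini-Hochberg adjusted p under 0.05 over 17190 genes. The sorted populations differed in lists of cell type markers, which the labels do not name. The 13 epithelial genes listed summed to a mean of 6153 and 8484 CPM in the Sox2-positive groups of batches A and B. In the Sox2-negative groups they summed to 326 and 635 CPM. A list of 13 mesenchymal genes summed to 1801 and 821 CPM in the Sox2-positive groups and to 14477 and 14424 CPM in the Sox2-negative ones. Blood cell genes were found mainly in the Sox2-negative libraries, with 7 erythroid genes at 1097 CPM (batch A) and 56659 CPM (batch B), against 4.44 and 5.62 CPM in Sox2-positive cells. A list of 10 leukocyte genes stood at 3629 and 718 CPM, and 8 endothelial genes at 1222 and 327 CPM, in the Sox2-negative groups, against at most 28.3 CPM in the Sox2-positive ones. A list of 8 glial genes stood at 1031 CPM in Sox2-positive cells of batch A and at 43.6 to 72.2 CPM in the other groups. The part of these cells in the results was not tested, and in bulk libraries fewer cells of a type and less RNA per cell cannot be told apart.

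Batch B libraries numbered 1 and 2 stood apart in both populations. The summed level of the 36 complex I genes was 5749 and 5622 CPM in Sox2-positive libraries 1 and 2, and 4265 to 4795 CPM in the other 5. It was 5544 and 5852 CPM in Sox2-negative libraries 1 and 2, and 5034 and 5285 CPM in the other 2. Batch B results are given below with all 11 libraries, and a call of a named member that was lost without these 4 is given with its value without them.

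Of the 99 members, 92 passed the filter on low counts. Those that did not were Cox7b2, Cox8b, Cox8c, the second Atp5o identifier and the pseudogenes Cox6c2, Ndufa11b and Ndufs6b. In batch A, 50 of the 92 were called lower in Sox2-positive cells and 12 higher, where 27.6% and 21.8% of all genes tested were called lower and higher. In either direction 49.5% of all genes were called. The median log2 fold change of the members was -0.41, against -0.13 over all genes. In batch B, 35 were lower and 20 higher, where 25.0% and 17.5% of all genes were (42.6% in either direction), with medians of -0.22 and -0.11. Scaling by total counts changed this balance to 28 lower and 26 higher in batch B, where it moved the median of all genes from -0.11 to 0.05. All genes then gave 3689 lower and 3656 higher of 17190. Without batch B libraries 1 and 2 the counts of members there were 24 and 12. Those of all genes were 2599 lower and 1846 higher of 18629. Of the 24, all were among the 35, and of the 12, 11 were among the 20 and the other was Uqcr11.

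Calls in both batches were lower for 33 members (background 18.8%) and higher for 10 (background 12.2%). Opposite calls were made for 2, Cox6a2 and Ndufa4l2, and 20 were called in neither batch. The batch A call of Cox6a2 rested on 1 library (Sox2-negative library 6, 3.76 CPM). The opposite calls numbered 1 with DESeq2 and with limma, and 0 with each batch fitted alone. When batch B libraries 1 and 2 were left out, 23 members were lower and 8 higher in both, and the 1 opposite call was that of Uqcr11. Total-count scaling gave 25 lower and 11 higher in both. The shares of all genes called in both batches were not computed for these settings. The levels of the populations did not overlap for 34 members in batch A (37.0%, against 25.2% of all genes) and for 41 in batch B (44.6%, against 36.4%).

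Summed over a complex, the Sox2-positive level was lowest relative to the Sox2-negative one for complex IV. Its 20 genes gave 3876 to 4436 CPM in batch A Sox2-negative libraries (median 4352) and 2468 to 3301 CPM in Sox2-positive libraries (median 2719). In batch B the Sox2-negative libraries gave 4228, 4352, 3551 and 3543 CPM, and the Sox2-positive libraries 2612 to 3581 CPM (median 2792). The groups did not overlap in batch A and overlapped slightly in batch B. The ratio of the means, Sox2-positive over Sox2-negative, was 0.65 in batch A and 0.76 in batch B. For the other complexes these ratios were 0.79 and 0.89 (complex I), 0.88 and 0.84 (complex V), 0.98 and 1.16 (complex III) and 1.00 and 1.13 (complex II). Without batch B libraries 1 and 2 the batch B ratios were 0.78 for complex IV, 0.88 for complex I, 0.85 for complex V, 1.17 for complex III and 0.98 for complex II. Scaling by total counts gave ratios of 0.70 and 0.84 for complex IV, 0.85 and 1.00 for complex I, 0.94 and 0.94 for complex V, 1.04 and 1.29 for complex III and 1.07 and 1.25 for complex II, so that in batch B complexes II and III were then farther from 1 than complex IV.

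**Figure D1:**
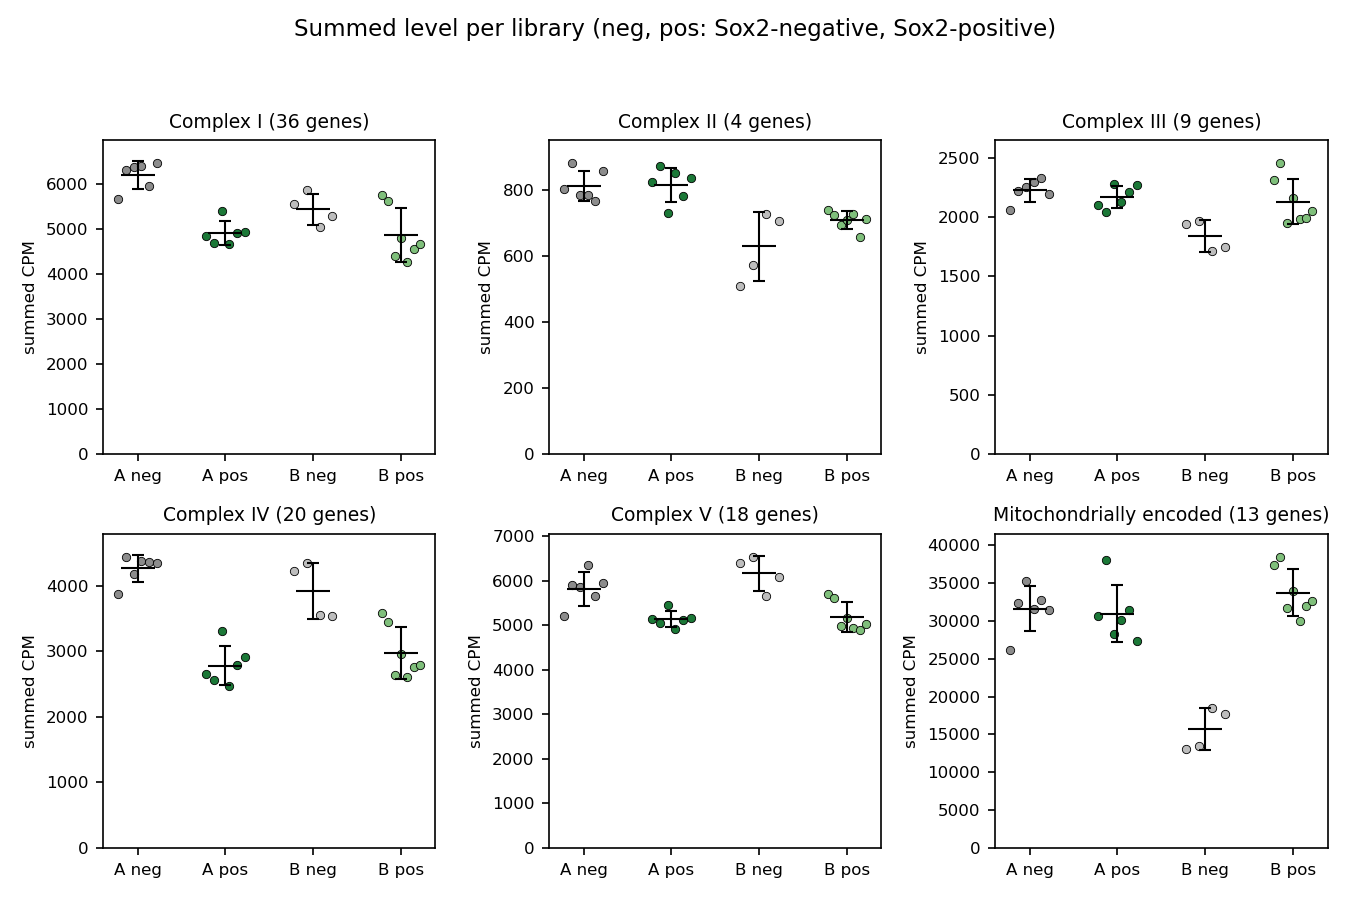
Summed CPM of the genes of each complex in every library, with mean and SD per group, for batch A and batch B Sox2-negative (grey) and Sox2-positive (green) libraries. Complex IV is lower in the Sox2-positive groups (ratio of means 0.65 and 0.76), complex II and III differ little in batch A, and the mitochondrially encoded genes are low only in batch B Sox2-negative libraries (mean 15700 CPM).

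Complex IV, cytochrome c oxidase, has 11 nuclear subunits of general use in this set. All 11 were lower in Sox2-positive cells in batch A and 8 of 11 in batch B, with medians of -0.58 and -0.52, and none was higher. The count in batch B was 7 when batch B libraries 1 and 2 were left out, without Cox7b (-0.23, adjusted p = 0.34), and 6 with total-count scaling. Cox5a, a subunit of the matrix face, ran from 196 to 337 CPM (median 286) in batch A Sox2-negative libraries and from 125 to 183 CPM (median 147) in Sox2-positive ones. In batch B it was at 264, 311, 266 and 241 CPM in Sox2-negative libraries and at 129 to 188 CPM (median 145) in Sox2-positive ones. The groups were apart in both batches, with log2 fold changes of -0.90 (SE 0.13, adjusted p = 3.1e-06) and -0.84 (SE 0.14, adjusted p = 2.2e-05).

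Cox7c, a small membrane subunit, stood at 316 to 414 CPM (median 359) and 160 to 246 CPM (median 184) in the Sox2-negative and Sox2-positive libraries of batch A. In batch B the Sox2-negative libraries gave 432, 431, 307 and 326 CPM and the Sox2-positive ones 162 to 248 CPM (median 181). No Sox2-positive library reached the lowest Sox2-negative one in its batch, and the log2 fold changes were -0.90 (SE 0.13, adjusted p = 2.2e-06) and -0.94 (SE 0.14, adjusted p = 3.3e-06). Cox6c gave -0.95 and -0.56, and Cox6a1, the general form of subunit 6a, -0.89 and -0.84 in batches A and B.

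Cox4i1, the general form of subunit 4 and the most abundant nuclear subunit of complex IV per length in each group except batch B Sox2-negative, was called in batch A only. It ran from 617 to 763 CPM (median 678) in batch A Sox2-negative libraries and from 433 to 565 CPM (median 525) in Sox2-positive ones, a log2 fold change of -0.43 (SE 0.09, adjusted p = 0.00039). In batch B the Sox2-negative libraries, at 621, 696, 568 and 544 CPM, lay within the range of the Sox2-positive ones, 515 to 711 CPM (log2 fold change -0.07, SE 0.10, adjusted p = 0.60). The difference between the batches did not pass the test (interaction 0.36, SE 0.13, adjusted p = 0.12). Cox5b and Cox7a2 were likewise called in batch A alone. Cox7a2l, a factor that joins complexes III and IV, gave 0.10 and 0.29 and was called in neither.

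Complex III, the cytochrome bc1 complex, split by kind of subunit. Uqcrc1 and Uqcrc2, the large core subunits that face the matrix, were higher in Sox2-positive cells in both batches, while the 5 small subunits were lower in batch A. Uqcrc1 lies at chr9:108936633-108949623 (GRCm38, plus strand). In batch A it ran from 204 to 365 CPM (median 290) in Sox2-negative libraries and from 539 to 692 CPM (median 663) in Sox2-positive ones. In batch B the Sox2-negative libraries gave 149, 222, 257 and 238 CPM and the Sox2-positive ones 549 to 665 CPM (median 595). The groups were far apart in both batches, 2.3-fold in batch A (log2 1.20, SE 0.13, adjusted p = 1.5e-08) and 2.76-fold in batch B (log2 1.46, SE 0.14, adjusted p = 4.9e-09). This was the highest log2 fold change of any member in batch A.

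Uqcrc2 was at 73.3 to 131 CPM (median 109) in Sox2-negative and 161 to 174 CPM (median 166) in Sox2-positive libraries of batch A. In batch B it was at 66.9, 76.1, 96.7 and 119 CPM in the former and 155 to 183 CPM (median 166) in the latter, again with no overlap. Its log2 fold changes were 0.65 (SE 0.14, adjusted p = 0.00039) and 0.89 (SE 0.16, adjusted p = 4.6e-05). Cyc1, the cytochrome c1 subunit, rose in batch A (0.54, SE 0.18, adjusted p = 0.016) and gave 0.49 in batch B (adjusted p = 0.051). Uqcrfs1, the iron-sulfur protein, gave -0.10 and 0.21 and was called in neither batch.

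Of the small subunits, Uqcrb, Uqcrh, Uqcrq, Uqcr10 and Uqcr11, all 5 fell in batch A (median -0.63), and Uqcrh and Uqcrq fell in batch B as well. The call for Uqcr11 (-0.30, adjusted p = 0.047) was lost in 22 of the 23 fits that left out 1 library (highest adjusted p = 0.19). These included all fits without 1 batch B library (-0.254 to -0.245), which keep every batch A library. Uqcrh, the hinge protein beside cytochrome c1, was at 302 to 403 CPM (median 355) and 181 to 239 CPM (median 219) in the Sox2-negative and Sox2-positive libraries of batch A. In batch B it was at 459, 447, 276 and 295 CPM and at 214 to 303 CPM (median 238). The groups were separate in batch A and met in batch B, with log2 fold changes of -0.73 (SE 0.13, adjusted p = 3.8e-05) and -0.57 (SE 0.14, adjusted p = 0.0013). Without batch B libraries 1 and 2 its batch B value was -0.28 (adjusted p = 0.12), and Uqcr11 was called higher there (0.42, adjusted p = 0.046). The near-equal sum of the complex in batch A thus covers calls in both directions.

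Complex V, ATP synthase, showed the same kind of split inside its catalytic head, the F1 part. Atp5a1, Atp5c1 and Atp5d, which encode the alpha, gamma and delta subunits, were higher in Sox2-positive cells in both batches. Atp5b and Atp5e, which encode the beta and epsilon subunits, were lower in both. Atp5a1 ran from 456 to 650 CPM (median 502) in Sox2-negative and from 916 to 1052 CPM (median 1012) in Sox2-positive libraries of batch A. In batch B it was at 625, 743, 524 and 625 CPM in Sox2-negative and 872 to 1033 CPM (median 979) in Sox2-positive libraries. The groups did not meet, and the gene was 1.93-fold higher in batch A (log2 0.95, SE 0.09, adjusted p = 3.1e-09) and 1.52-fold in batch B (log2 0.61, SE 0.10, adjusted p = 2.1e-05).

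Atp5c1 ran from 159 to 274 CPM (median 227) against 324 to 396 CPM (median 344) in batch A. In batch B the Sox2-negative libraries were at 157, 168, 205 and 216 CPM and the Sox2-positive ones at 314 to 398 CPM (median 318). Again no libraries of the populations overlapped, at log2 fold changes of 0.70 (SE 0.12, adjusted p = 3.6e-05) and 0.88 (SE 0.14, adjusted p = 1e-05). Atp5b, the catalytic beta subunit that pairs with alpha around the head, moved the other way. It was at 879 to 1069 CPM (median 1017) and 845 to 937 CPM (median 871) in the Sox2-negative and Sox2-positive libraries of batch A. In batch B the Sox2-negative libraries were at 1674, 1725, 1405 and 1511 CPM, all above the Sox2-positive range of 859 to 1061 CPM (median 966). The log2 fold changes were -0.20 (SE 0.07, adjusted p = 0.023) and -0.72 (SE 0.08, adjusted p = 1.6e-08). The batch A value missed the threshold in 17 of the 23 fits that left out 1 library (highest adjusted p = 0.11), and was -0.14 (adjusted p = 0.057) without batch B libraries 1 and 2. Among the 17 were all fits without 1 batch B library (-0.146 to -0.137), which keep every batch A library. Those losses therefore do not show dependence on a single batch A library.

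Atp5e, the small epsilon subunit, was at 267 to 353 CPM (median 311) and 118 to 174 CPM (median 133) in batch A. In batch B it was at 421, 367, 266 and 300 CPM in Sox2-negative and 131 to 200 CPM (median 150) in Sox2-positive libraries. The populations were separate in both, at -1.18 (SE 0.13, adjusted p = 3e-08) and -1.09 (SE 0.13, adjusted p = 2.8e-07).

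Small nuclear-encoded membrane subunits of complex V were called lower in Sox2-positive cells, though not all of them in batch B. Of 4 small membrane subunits, Atp5l, Atp5mpl, Atp5k and Atp5j2, all 4 fell in batch A (median -1.01) and the first 3 in batch B. Atp5mpl was at 179 to 278 CPM (median 250) and 91.8 to 133 CPM (median 104) in batch A. In batch B it was at 240, 235, 220 and 214 CPM and at 84.7 to 115 CPM (median 105), with no overlap. Its log2 fold changes were -1.19 (SE 0.12, adjusted p = 8.7e-09) and -1.13 (SE 0.13, adjusted p = 6.2e-08).

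The c ring, the rotor in the membrane, is made of 1 protein encoded by 3 genes, Atp5g1, Atp5g2 and Atp5g3, whose mature proteins are alike and whose precursors differ in the targeting sequence. Atp5g3 (chr2:73908447-73911326, minus strand) had the lowest log2 fold change of any complex V gene in both batches. It was at 241 to 326 CPM (median 261) and 103 to 120 CPM (median 115) in batch A. In batch B it was at 399, 348, 325 and 296 CPM in Sox2-negative and 121 to 174 CPM (median 144) in Sox2-positive libraries. The populations were widely separate, at -1.25 (SE 0.11, adjusted p = 3.1e-10) and -1.22 (SE 0.11, adjusted p = 1.2e-09). Atp5g2 fell by 0.79 and 1.05 on the log2 scale (adjusted p = 0.00016 and 1.1e-05), while Atp5g1 gave -0.07 (adjusted p = 0.58) and 0.30 (adjusted p = 0.031), the latter 0.13 (adjusted p = 0.51) without batch B libraries 1 and 2. Per length, Atp5g3 made 72.1% ± 3.63 of the sum of Atp5g1 and Atp5g3 (SD, n = 6) in the Sox2-negative libraries of batch A and 53.6% ± 3.23 in Sox2-positive ones (n = 6). In batch B the shares were 81.1% ± 3.29 (n = 4) and 60.2% ± 1.17 (n = 7). These shares depend on the median transcript lengths, 2675.5 bases for Atp5g1 and 718.5 for Atp5g3, and leave Atp5g2 out. Atp5f1 and Atp5o of the peripheral stalk, which holds the head still, were called in neither batch. Atp5h of the stalk fell in both (-0.82 and -0.48), and Atp5j was called higher in batch B (0.31, adjusted p = 0.041), a call lost without batch B libraries 1 and 2 (0.15, adjusted p = 0.51).

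**Figure D2:**
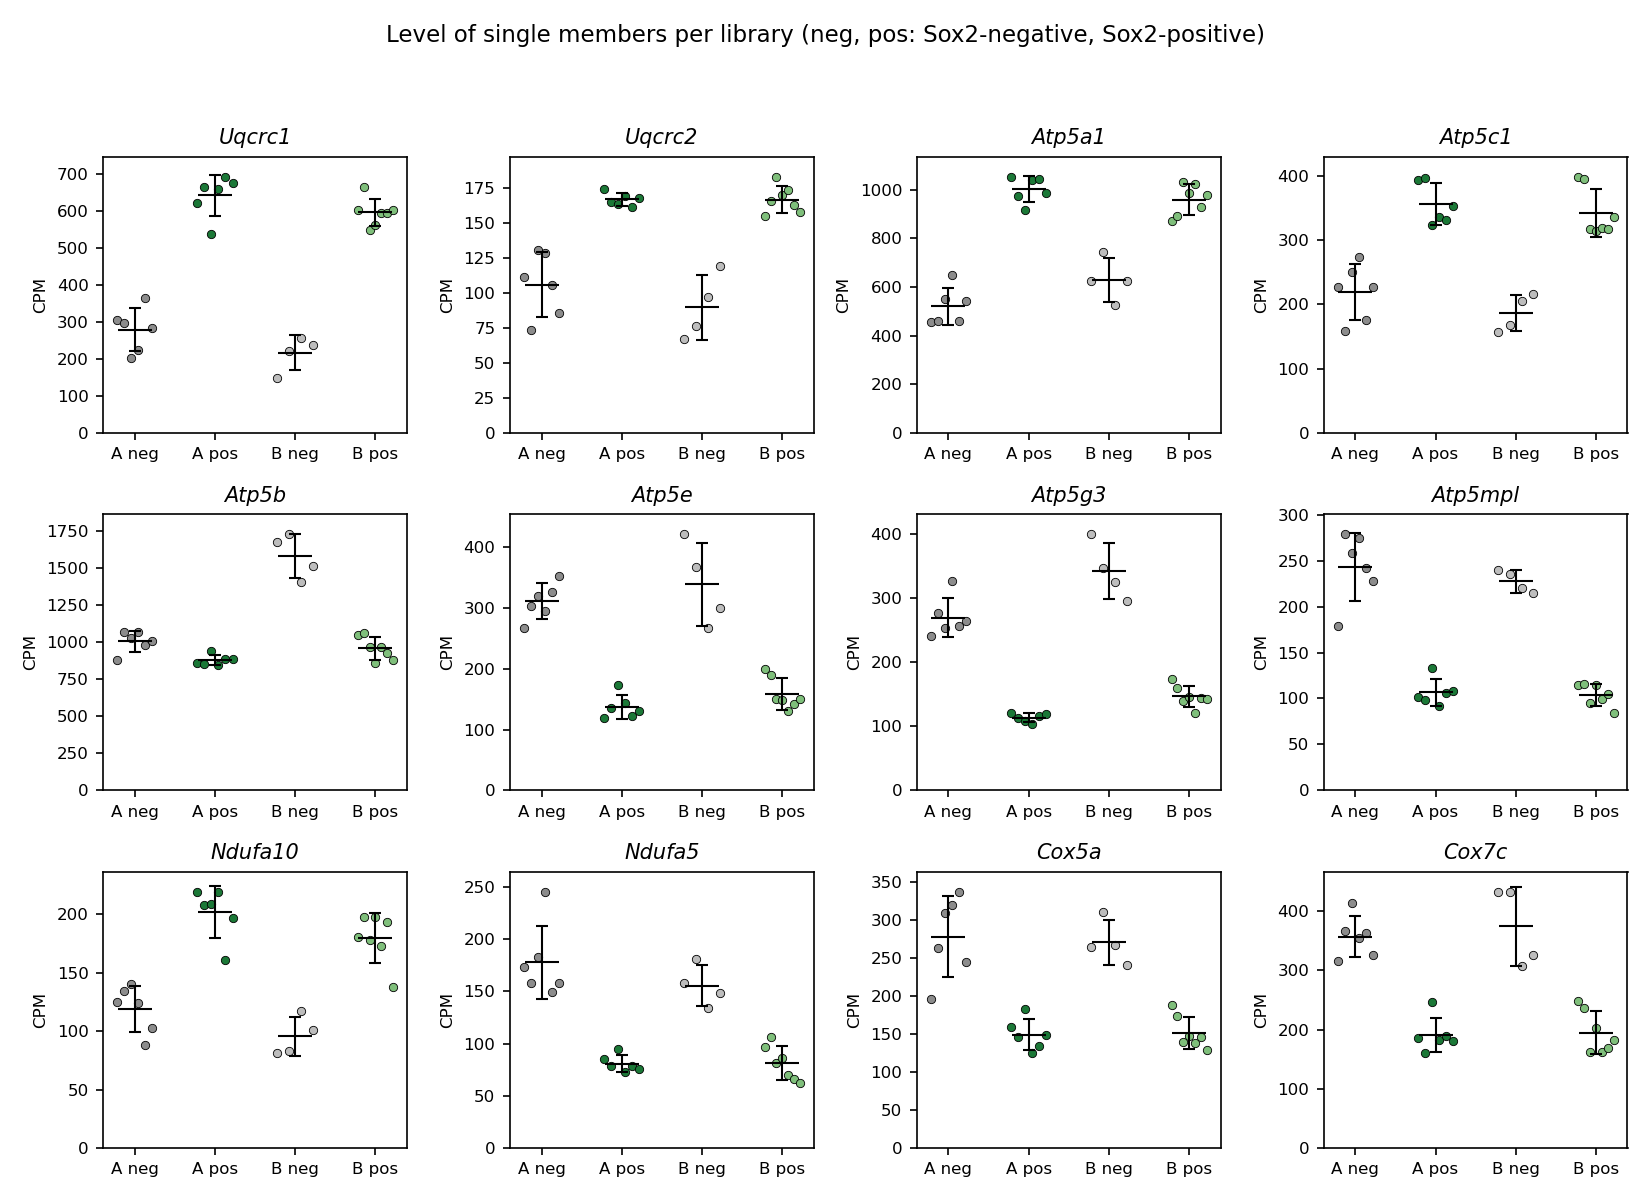
CPM of 12 members in every library, with mean and SD per group, for batch A and batch B Sox2-negative (grey) and Sox2-positive (green) libraries. Uqcrc1, Uqcrc2, Atp5a1, Atp5c1 and Ndufa10 are higher in the Sox2-positive groups of both batches, and Atp5e, Atp5g3, Atp5mpl, Ndufa5, Cox5a and Cox7c lower without overlap; Atp5b is high in batch B Sox2-negative libraries (1405 to 1725 CPM).

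Complex I, NADH dehydrogenase, has nuclear core subunits that carry the flavin and the iron-sulfur clusters. Of those described here, Ndufs8 and Ndufv2 were higher in Sox2-positive cells in both batches and Ndufs1 lower, while Ndufv1, Ndufs3 and Ndufs7 were called in neither. Ndufs1, the largest core subunit, was at 95.2 to 163 CPM (median 114) and 63.4 to 122 CPM (median 70.5) in batch A. In batch B it was at 141, 153, 117 and 107 CPM and at 77.9 to 87.0 CPM (median 82.2). The populations overlapped in batch A and not in batch B, at -0.62 (SE 0.16, adjusted p = 0.0026) and -0.65 (SE 0.17, adjusted p = 0.0034). Ndufs8 ran from 73.9 to 149 CPM (median 106) and from 149 to 171 CPM (median 162) in batch A, and in batch B was at 54.2, 80.6, 154 and 74.3 CPM against 114 to 158 CPM (median 127). Sox2-negative library 3 of batch B lay at the top of the Sox2-positive range. The log2 fold changes of Ndufs8 were 0.60 (SE 0.19, adjusted p = 0.011) and 0.54 (SE 0.21, adjusted p = 0.037), and the latter was lost without batch B Sox2-negative library 1, 2 or 4 (highest adjusted p = 0.12). Without batch B libraries 1 and 2 the batch B values were 0.18 (adjusted p = 0.64) for Ndufs8, 0.23 (adjusted p = 0.31) for Ndufv2 and -0.40 (adjusted p = 0.23) for Ndufs1. Ndufv1, which binds NADH, gave 0.40 (adjusted p = 0.056) and 0.09 (adjusted p = 0.73).

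Of 29 accessory subunits, which surround the core, 18 were lower and 2 higher in batch A, and 13 lower and 6 higher in batch B. The batch B counts were 6 lower and 4 higher without batch B libraries 1 and 2, and 8 lower and 6 higher with total-count scaling. All genes gave 2599 lower and 1846 higher of 18629, and 3689 lower and 3656 higher of 17190, in these settings. Ndufa5 had one of the largest falls. It was at 150 to 245 CPM (median 166) and 73.1 to 95 CPM (median 78.3) in batch A, and in batch B at 158, 181, 134 and 148 CPM against 62.2 to 106 CPM (median 81.8). The populations did not overlap, at -1.14 (SE 0.15, adjusted p = 4.4e-07) and -0.93 (SE 0.15, adjusted p = 2.1e-05). Ndufa1, an accessory subunit needed for assembly of the membrane arm, gave -1.15 and -0.64, and Ndufa2 -0.91 and -0.86, also without overlap.

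Ndufa10 went the other way. It was at 88.0 to 140 CPM (median 124) and 161 to 219 CPM (median 208) in batch A. In batch B it was at 81.2, 83.3, 117 and 101 CPM in Sox2-negative and 137 to 198 CPM (median 181) in Sox2-positive libraries. Every Sox2-positive library lay above every Sox2-negative one of its batch, at 0.76 (SE 0.13, adjusted p = 3e-05) and 0.91 (SE 0.15, adjusted p = 1.5e-05). Ndufa9, the other accessory subunit called higher in both batches, gave 0.35 (adjusted p = 0.031) and 0.96. Its batch A call was lost without Sox2-negative library 1 or 2 of that batch and without the count filter. It was also lost with each batch fitted alone and with the trend on transcript length removed. Ndufb4 was lower in both batches (-0.77 and -0.55), but its batch B value missed the threshold without batch B libraries 1 and 2 (-0.46, adjusted p = 0.13) and with total-count scaling (-0.40, adjusted p = 0.063). The annotated pseudogene Ndufb4c, which may share reads with it, was at 44.8 to 105 CPM over all libraries and was called in neither batch.

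The 8 complex I assembly factors build the complex without being part of it, and their levels were low, with a median of 13.4 CPM per kilobase in batch A Sox2-negative libraries against 192 for complex I subunits. Ndufaf1 was called higher in both batches, at 7.69 to 34.0 CPM (median 11.3) and 23.5 to 47.5 CPM (median 31.1) in batch A. In batch B it was at 20.3, 14.6, 9.62 and 10.9 CPM and at 24.8 to 44.6 CPM (median 32.9). The populations overlapped in batch A and not in batch B, at 1.09 (SE 0.32, adjusted p = 0.0064) and 1.32 (SE 0.36, adjusted p = 0.0041). Ndufaf8 fell in batch A only (-0.82, adjusted p = 0.0019) and Ndufaf7 was called in batch B only (0.81, adjusted p = 0.016), where it gave 0.59 (adjusted p = 0.25) without batch B libraries 1 and 2. Ndufaf2, Ndufaf3, Ndufaf5 and Ndufaf6 were called in neither, and the last 3 had SEs of 0.42 to 0.49.

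Complex II, succinate dehydrogenase, is also an enzyme of the citric acid cycle and has no mitochondrially encoded subunit. None of its 4 genes was called in batch A. Sdha, the flavoprotein that oxidises succinate, was at 260 to 339 CPM (median 284) and 181 to 289 CPM (median 248) there. In batch B it was at 252, 272, 320 and 221 CPM and at 152 to 234 CPM (median 187). The ranges overlapped in both batches, with log2 fold changes of -0.25 (SE 0.13, adjusted p = 0.11) and -0.53 (SE 0.14, adjusted p = 0.0026), the latter called, though at -0.43 (adjusted p = 0.083) without batch B libraries 1 and 2. Sdhb, the iron-sulfur subunit, gave 0.26 (adjusted p = 0.16) and 0.39 (adjusted p = 0.054), and Sdhd 0.16 and 0.17. Sdhc is described with the batches below.

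**Figure D3:**
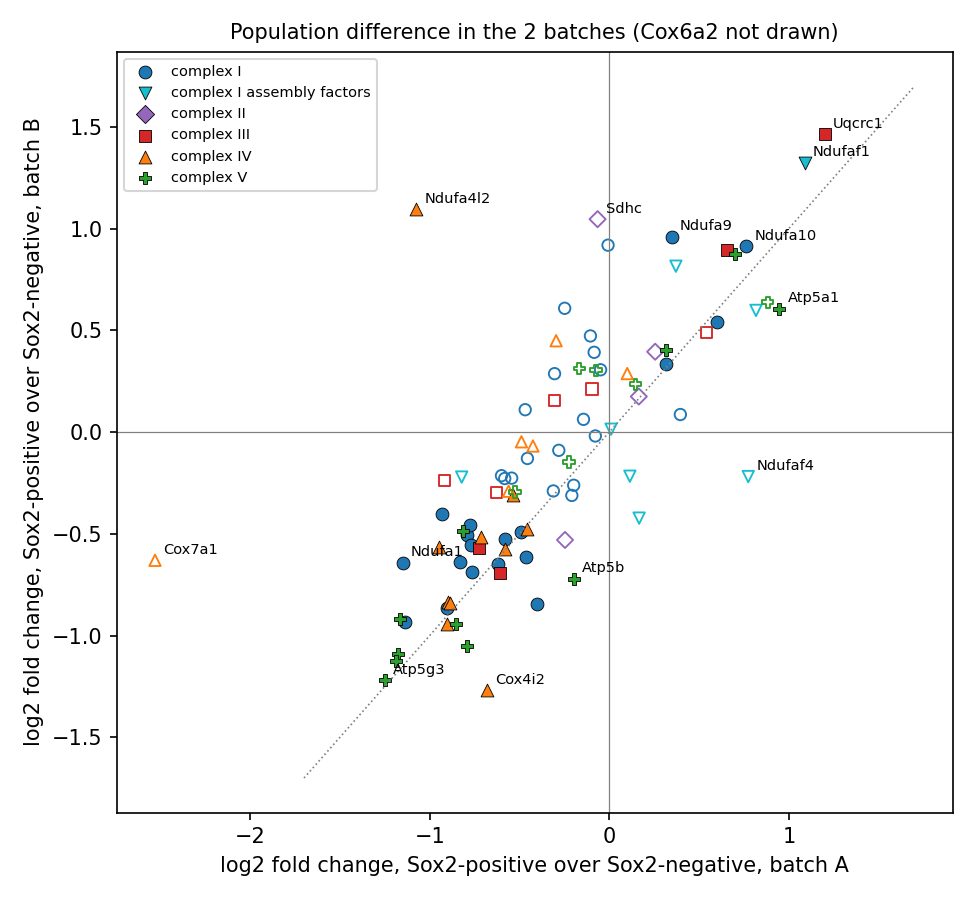
Log2 fold change of Sox2-positive over Sox2-negative cells in batch A (x axis) and batch B (y axis) for 90 protein-coding members tested, by complex, filled where called in both batches and open otherwise; the dotted line marks equal values. Members called lower in both batches (33) outnumber those called higher in both (10), and Ndufa4l2 has opposite signs. Cox6a2, not drawn, has them too, in batch A on the counts of 1 library.

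Several subunits of complex IV exist in tissue-restricted forms. Cox4i2, a form of subunit 4 known from lung and from cells that sense low oxygen, was lower in Sox2-positive cells in both batches. It was at 31.8 to 69.1 CPM (median 48.2) and 18 to 39.0 CPM in batch A, and in batch B at 45.8, 53.0, 51.7 and 62.9 CPM against 18.4 to 32.3 CPM (median 19.9). The ranges overlapped in batch A and were apart in batch B, at -0.68 (SE 0.22, adjusted p = 0.013) and -1.27 (SE 0.24, adjusted p = 9.7e-05). Per length it made 6.70% ± 1.52 (SD, n = 6) and 5.67% ± 1.24 (n = 6) of the subunit 4 pair in batch A, and 8.41% ± 1.65 (n = 4) and 3.79% ± 0.562 (n = 7) in batch B, Sox2-negative first. Cox6b2, a form of subunit 6b known from testis, was at 12.8 to 31.2 CPM over all 23 libraries and was called in neither batch (-0.30 and 0.45).

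The muscle forms were at or near 0. Cox7a1 was at 0.527 to 5.37 CPM (median 3.63) in batch A Sox2-negative libraries and at most 1.19 CPM in any library of the other groups. It was called lower in batch A (-2.53, SE 0.93, adjusted p = 0.026), a call that rested on at most 25 counts per library and was lost or untested in 5 of the fits that left out 1 library. Cox8b reached 1.18 CPM in batch B Sox2-positive libraries and was listed at 0 in every library of the other groups.

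Cox6a2, the heart and skeletal muscle form of subunit 6a (chr7:128205435-128206387, minus strand), was present in all 7 batch B Sox2-positive libraries at 0.674 to 3.64 CPM (median 1.82), from 2 to 21 counts. It was listed at 0 in all 4 batch B Sox2-negative and all 6 batch A Sox2-positive libraries. In batch A Sox2-negative libraries it was at 3.76 CPM (14 counts) in library 6 and at 0 in the other 5. Taking 3 counts per library as the floor, the mean batch B Sox2-positive level was at least 4.31-fold that of batch B Sox2-negative (edgeR adjusted p = 0.0090). Against batch A Sox2-positive it was at least 3.28-fold (edgeR adjusted p = 0.013). The bound is one of group means, since the lowest library, at 2 counts, lies under that floor. The gene passed the filter only through this high group and batch A Sox2-negative library 6, so these p-values are no separate support for the difference. The gene was also called lower in batch A (adjusted p = 0.020), on the counts of that 1 library; without it, or without batch B Sox2-positive library 2, 3 or 4, the gene did not pass the filter. Without batch B libraries 1 and 2 the batch B difference did not pass (adjusted p = 0.12). A list of 12 skeletal muscle genes moved alongside: it summed to 242 to 435 CPM in batch B Sox2-positive libraries, and to at most 26.1 CPM in any library of the other groups. Of these 12, 8 were called higher in batch B Sox2-positive than in batch A Sox2-positive cells, and Myod1 and Tnnc2 were at 0 in every library of the other 3 groups.

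Ndufa4l2, a relative of Ndufa4 known to respond to low oxygen and to be high in pericytes, had opposite calls in the batches. It was at 13.2 to 36.1 CPM (median 27.2) and 4.21 to 23.5 CPM (median 10.9) in batch A. In batch B it was at 6.89, 10.2, 9.13 and 9.01 CPM in Sox2-negative and 14.0 to 25.9 CPM (median 18.2) in Sox2-positive libraries. The populations overlapped in batch A (-1.08, SE 0.34, adjusted p = 0.012) and did not in batch B (1.10, SE 0.39, adjusted p = 0.024). The interaction was 2.17 (SE 0.52, adjusted p = 0.0091). The 12 mural cell genes listed summed to 1203 and 309 CPM (batch A) and to 773 and 590 CPM (batch B), Sox2-negative first, and their part in this result was not tested. Without batch B libraries 1 and 2 the batch B value was 1.13 (adjusted p = 0.16) and the interaction 2.15 (adjusted p = 0.11). Ndufa4 itself was lower in Sox2-positive cells by the same amount in both batches (-0.58 and -0.58).

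The 2 batches were then compared within each population, and the interaction, the difference in batch B minus that in batch A, was tested. In the interaction 7 members were higher and 2 lower, where 2.82% and 4.22% of all genes were (7.04% in either direction). Between batches, 2 members were higher and 13 lower in batch B Sox2-negative cells (5.85% and 5.35% of all genes, 11.2% in either direction), and 3 higher and 2 lower in batch B Sox2-positive cells (4.85% and 5.54%, 10.4% in either direction). Total-count scaling changed the last pair to 2 higher and 4 lower, where all genes gave 666 higher and 1214 lower of 17190. With batch B libraries 1 and 2 left out the interaction calls numbered 2 higher, of which Sdhc was among the 7, and 1 lower, Atp5b. All genes gave 159 higher and 322 lower of 18629 there. The batch and the days and mice behind it cannot be told apart.

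Sdhc, a membrane anchor of complex II (chr1:171127165-171150603, minus strand), was low in batch B Sox2-negative libraries, at 57.9, 94.7, 112 and 114 CPM. It was at 149 to 212 CPM (median 180) in batch A Sox2-negative, 150 to 195 CPM (median 176) in batch A Sox2-positive and 159 to 220 CPM (median 193) in batch B Sox2-positive libraries. No library of the other 3 groups was as low as the highest of that group. The interaction was 1.11 (SE 0.21, adjusted p = 0.0011), and 0.85 (adjusted p = 0.029) without batch B libraries 1 and 2.

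Ndufa12, a complex I accessory subunit, showed the same order. It was at 67.6, 65.6, 82.7 and 68.0 CPM in the Sox2-negative libraries of batch B, and at 107 to 185 CPM (median 158), 138 to 165 CPM (median 155) and 118 to 162 CPM (median 125) in the batch A Sox2-negative, batch A Sox2-positive and batch B Sox2-positive groups. The 4 libraries lay below all others, with an interaction of 0.93 (SE 0.19, adjusted p = 0.0025), and of 0.70 (adjusted p = 0.096) without batch B libraries 1 and 2. Ndufa8 and Ndufb9 (interaction 0.86 and 0.58, adjusted p = 0.023 and 0.014) were also lower in batch B than in batch A Sox2-negative cells, although the interaction of Ndufa8 missed the threshold without batch B Sox2-negative library 1 or 2 (adjusted p = 0.055 and 0.062). Without libraries 1 and 2 of both batch B populations, Ndufa8 gave -0.60 (adjusted p = 0.15) and Ndufb9 -0.36 (adjusted p = 0.14) between batches, with interactions of 0.57 (adjusted p = 0.34) and 0.42 (adjusted p = 0.21), and neither passed. Ndufa9 was lower there too (-0.96, adjusted p = 9.2e-05), with an interaction of 0.61 that did not pass (adjusted p = 0.057).

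Uqcrb differed in its starting level, at 261 to 407 CPM (median 353) in batch A Sox2-negative libraries and 198, 198, 184 and 169 CPM in batch B Sox2-negative ones, against 154 to 208 CPM and 117 to 209 CPM in Sox2-positive libraries. Its interaction (0.68, adjusted p = 0.043) and that of Ndufaf4 (-0.99, adjusted p = 0.038) were lost in 15 and 13 of the 23 fits that left out 1 library, and gave 0.58 (adjusted p = 0.19) and -1.12 (adjusted p = 0.11) without batch B libraries 1 and 2. Ndufaf4 was at 40.7 to 93.5 CPM (median 81.1) in batch A Sox2-positive libraries and at 26.9 to 54.8 CPM in those of the other 3 groups. In the opposite direction, Atp5b was higher in batch B than in batch A Sox2-negative cells (0.65, adjusted p = 1.9e-06) and had a negative interaction of -0.52 (SE 0.10, adjusted p = 0.0017).

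**Figure D4:**
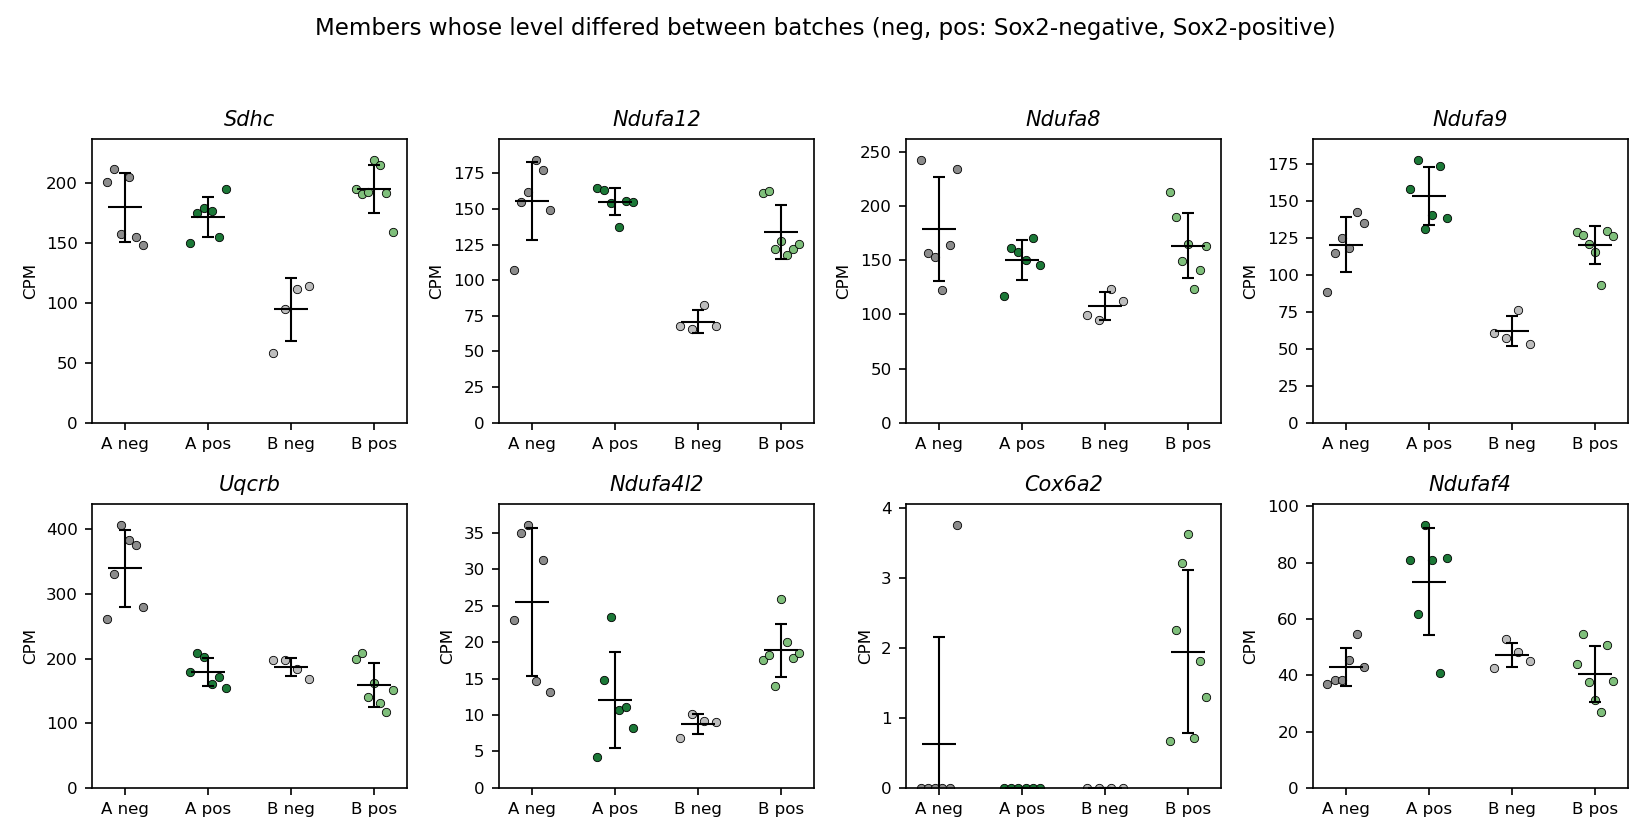
CPM of 8 members that differed between the batches, in every library, with mean and SD per group. Sdhc, Ndufa12, Ndufa8 and Ndufa9 are low in batch B Sox2-negative libraries (Sdhc 57.9 to 114 CPM), Uqcrb is high in batch A Sox2-negative ones, Ndufaf4 in most batch A Sox2-positive ones, and Cox6a2 is found in every batch B Sox2-positive library and in 1 other.

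The 13 mitochondrially encoded subunits were called in both directions. In batch A, mt-Cytb, mt-Co1, mt-Atp6 and mt-Atp8 were higher in Sox2-positive cells and 6 others, mt-Nd1, mt-Nd2, mt-Nd3, mt-Nd4, mt-Nd6 and mt-Co2, lower. In batch B, 7 were higher and 3, mt-Nd2, mt-Nd3 and mt-Nd6, lower. For mt-Co1, the catalytic subunit of complex IV, the group means were 3781 ± 502 CPM (SD, n = 6) and 5447 ± 660 CPM (n = 6) in batch A, and 866 ± 515 CPM (n = 4) and 6722 ± 243 CPM (n = 7) in batch B, Sox2-negative first. Its log2 fold changes were 0.53 and 2.96 (adjusted p = 0.026 and 1.7e-10), while every general nuclear subunit of complex IV gave a value below 0. The interaction was above 0 for all 13 and called for 11. Their summed level was 13132 to 18528 CPM in the Sox2-negative libraries of batch B and 26212 to 38464 CPM in all others. These batch B Sox2-negative libraries are those with erythroid genes at 53611 to 62038 CPM, whose part in this was not tested.

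Transcript length moved with the population difference. Length was the median over basic protein-coding transcripts of the GENCODE M21 annotation. Over the 91 protein-coding members tested, Spearman's rho of the log2 fold change with length was 0.63 in batch A and 0.45 in batch B, against -0.06 and -0.12 over all genes. These are descriptions across genes that share the same libraries. Of 26 members of 401 to 600 bases, 23 were lower in batch A and 0 higher, and of 18 members of 1201 to 2000 bases, 4 were lower and 6 higher. In genes that are not members the same classes gave 40.5% lower and 10.7% higher, and 20.7% lower and 29.2% higher. Length and role go together here: the small subunits of complex III have transcripts of 434 to 535 bases and its core subunits 1363 to 1896, and general complex IV subunits have 460 to 1001. The 3 F1 genes that were higher, Atp5a1, Atp5c1 and Atp5d, have 2572.5, 1166 and 931 bases, against 421 for Atp5e, but Atp5b, which was lower, has 1916.

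With each library's trend on length removed, a step chosen after these values were seen, 34 members were lower and 14 higher in batch A, including 32 of the 50 and 9 of the 12. In batch B 32 were lower and 22 higher, including 32 of the 35 and 18 of the 20. The small subunits of complex III then gave 1 lower (Uqcrb) and 1 higher (Uqcr11, which had been lower) of 5 in batch A. Of the 11 general subunits of complex IV, 9 were lower in batch A and 7 in batch B, without Ndufa4 in batch A (-0.05, adjusted p = 0.66) and Cox8a in either (-0.13 and -0.14). Uqcrc1 (1.00 and 1.29), Atp5a1 (0.81 and 0.62), Atp5mpl (-0.70 and -0.88) and Ndufa5 (-0.77 and -0.81), with Atp5g3, stayed past the threshold in both batches. Atp5g2 gave -0.40 (adjusted p = 0.061) in batch A.

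**Figure D5:**
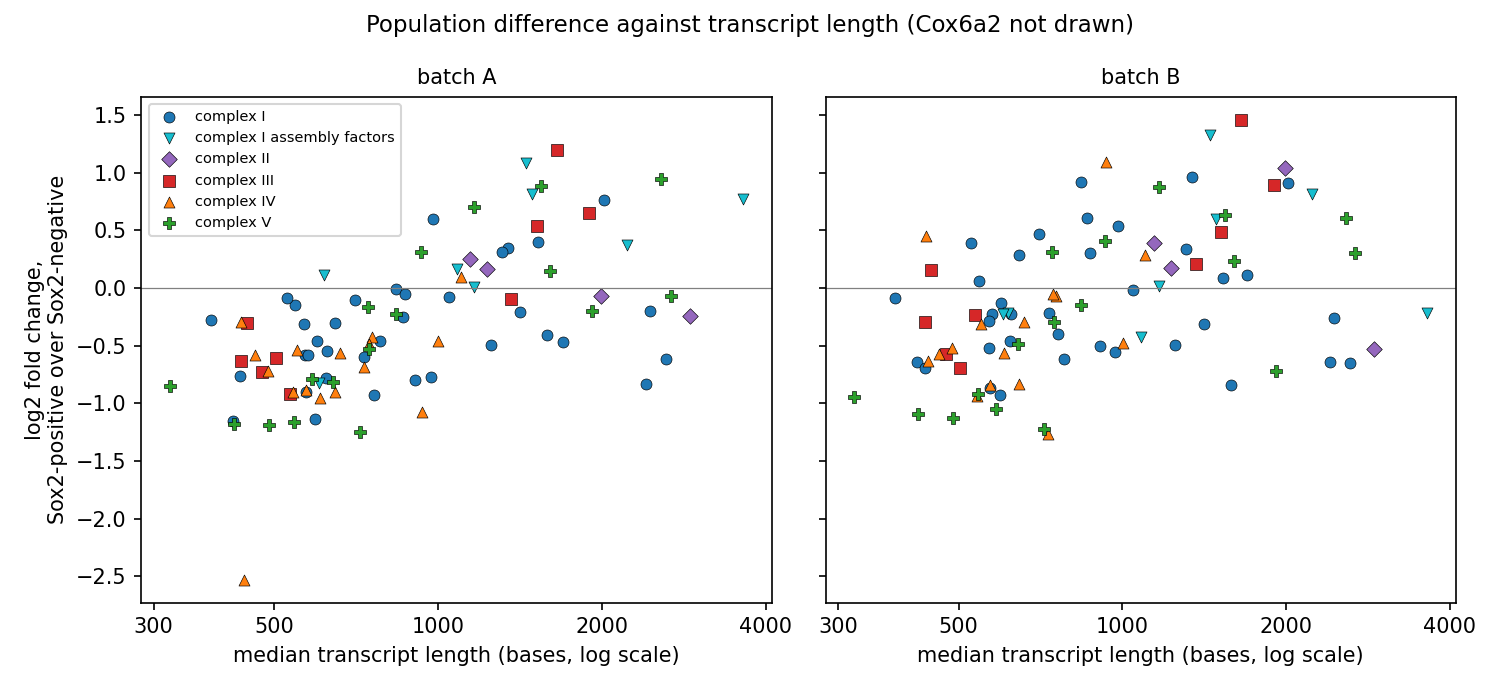
Log2 fold change of Sox2-positive over Sox2-negative cells (y axis) against median transcript length in bases (x axis, log scale) for the protein-coding members tested without Cox6a2, in batch A (left) and batch B (right), by complex. Short transcripts lie mostly below 0 and Uqcrc1, Uqcrc2 and Cyc1 of complex III above it; Spearman's rho over all 91 was 0.63 and 0.45.

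Related gene lists gave the following counts in batches A and B, higher and lower in Sox2-positive cells. Of 16 citric acid cycle genes, 9 were higher and 1 lower in batch A, with 9 higher and 2 lower in batch B (medians 0.65 and 0.56). Of 20 identifiers of glycolysis genes, 17 were higher and 1 lower, then 12 and 1 (medians 1.21 and 0.84), and their summed level went from 4314 to 9784 CPM (batch A) and from 4457 to 7437 CPM (batch B). Assembly factors of other complexes gave 7 higher and 9 lower of 41, then 6 and 3. Of 18 regulators of mitochondrial gene expression, 4 were higher and 4 lower, then 3 and 3. Genes of the mitochondrial ribosome gave 13 higher and 8 lower of 78, then 24 and 5, and those of the cytosolic ribosome 4 higher and 61 lower of 83, then 12 and 52. The percentages of all genes are those given above for the same comparisons.

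The promoters of the members were examined for 3 motifs that are known in genes of this pathway: GCATGCG, from the site of nuclear respiratory factor 1 (NRF1), CCGGAAG, from the site of GABP and other ETS factors, and AAGATGG, from the site of YY1. Each was searched on both strands in windows of 300 bases, 250 before to 50 after a transcript start, from RefSeq (GRCm38.p6), where 74 members had 79 windows. The NRF1 letters on the 2 strands can overlap each other, as they do in Uqcrc1, Atp5l and Cox6a1. The NRF1 letters were in 13 of the 79 (16.5%, against 3.58% of 32851 windows of all genes), the ETS letters in 18 (22.8%, against 8.86%) and the YY1 letters in 11 (13.9%, against 6.34%). At least 1 of the 3 was in 34 (43.0%, against 17.3%), in 14 of 27 windows of members lower in both batches (51.9%) and in 4 of 10 windows of members higher in both (40.0%).

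Promoter windows of 4 genes, chosen after their values were seen, are printed as examples 5′ to 3′ on the gene's strand, with the matches in capitals. That of Uqcrc1 is the only 1 of the 10 windows of members higher in both batches with the NRF1 letters. Uqcrc1 (chr9:108936398-108936697, plus strand), which was higher in Sox2-positive cells, holds the NRF1 letters just after its start. Atp5l (chr9:44920693-44920992, minus strand) and Cox6a1 (chr5:115348909-115349208, minus strand), which were lower, hold the same NRF1 letters upstream, with 2 and 1 ETS matches. Ndufa3 (chr7:3617123-3617422, plus strand), also lower, though in batch B not past the threshold without batch B libraries 1 and 2 (-0.45, adjusted p = 0.15), holds the YY1 letters after its start. A match is a description and not a site of binding.
Uqcrc1: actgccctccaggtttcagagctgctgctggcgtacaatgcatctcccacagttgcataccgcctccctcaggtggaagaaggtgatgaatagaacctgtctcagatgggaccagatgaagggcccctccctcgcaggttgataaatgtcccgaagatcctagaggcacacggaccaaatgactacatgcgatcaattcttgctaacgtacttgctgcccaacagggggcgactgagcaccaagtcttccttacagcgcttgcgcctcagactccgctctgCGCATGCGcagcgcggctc
Atp5l: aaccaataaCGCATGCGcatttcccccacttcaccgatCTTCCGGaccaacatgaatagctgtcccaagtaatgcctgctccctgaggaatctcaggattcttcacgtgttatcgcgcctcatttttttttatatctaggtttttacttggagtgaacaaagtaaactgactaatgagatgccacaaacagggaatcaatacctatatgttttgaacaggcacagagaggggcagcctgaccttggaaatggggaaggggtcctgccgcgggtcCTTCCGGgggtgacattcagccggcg
Cox6a1: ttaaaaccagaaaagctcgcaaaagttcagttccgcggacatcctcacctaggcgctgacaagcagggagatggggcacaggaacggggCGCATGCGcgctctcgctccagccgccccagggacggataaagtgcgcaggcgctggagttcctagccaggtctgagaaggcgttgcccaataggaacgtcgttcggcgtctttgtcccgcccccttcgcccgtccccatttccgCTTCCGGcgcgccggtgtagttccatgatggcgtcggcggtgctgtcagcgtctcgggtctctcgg
Ndufa3: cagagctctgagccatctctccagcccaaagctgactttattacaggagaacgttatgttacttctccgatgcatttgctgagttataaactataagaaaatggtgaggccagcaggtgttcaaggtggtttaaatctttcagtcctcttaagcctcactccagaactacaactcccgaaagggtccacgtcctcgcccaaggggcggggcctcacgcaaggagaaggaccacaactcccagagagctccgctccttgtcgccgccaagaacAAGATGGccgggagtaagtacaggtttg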

How the data were processed

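Estimated counts per gene were deposited by the authors for 23 libraries, with no pooling of replicates. The submitters' processing notes name FastQC, Trimmomatic, Salmon and the build mm10, with no versions or roles. Only 0.000436% of nonzero values were whole (within 1e-06), so counts were rounded before each test. Whether they were adjusted for transcript length is not given in the sources used here, and such a step would bear on the levels per kilobase and the comparison with length. All 54347 identifiers were counted toward totals, and symbols came from GENCODE M21. Genes with too few counts (edgeR filterByExpr, minimum 10, over the 4 groups) were left out of the tests. One edgeR quasi-likelihood fit (edgeR 4.0.16, R 4.3.3, TMM scaling) of 4 group means gave both population differences, their difference and the batch differences, with Benjamini-Hochberg adjustment over all 17190 genes. CPM floors of 3 counts were 0.357 to 1.30 and cover counting error only.

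DESeq2 1.42.0, limma 3.58.1 (voom with sample quality weights), other scalings, no filter, each batch alone, a replicate block and leaving out each library were the alternatives. On simulated counts the fit called 24.5% and 63.9% of genes changed by 1 and 2 on the log2 scale in batch A, and made 3 false calls among 16677 genes. For the batch B difference it called 26.7% and 60.4% with 7 false calls, and for the interaction 9.28% and 30.5% with 2. The simulation drew libraries independently and changed few genes, 98 by 1 and 97 by 2 in batch A. In the data 49.5% of genes were called there, so these rates do not carry over to the data.

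The members, the lists and the tests were chosen with earlier results of these data known. Genes were named by rule: central subunits, tissue-restricted forms with their partners, the highest and lowest log2 fold changes of each complex with at least 10 CPM on average, and the members with the strongest batch differences. Atp5d, Atp5e, Atp5f1, Atp5h, Atp5j, Atp5j2, Atp5k, Atp5l, Atp5o, Cox5b, Ndufa3, Ndufa8, Ndufaf2, Ndufb4, Ndufb4c, Ndufb9, Ndufs3, Ndufs7, Ndufv2, Sdhd, Uqcr10 and Uqcr11 fell outside it and were named after their values were seen. Not every gene the rule names is reported here.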

Additional observations from a re-analysis of the deposited data

Results flagged for a closer look

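In 19 of 325 groups of 4 to 7 libraries, 1 library lay far from the rest by Dixon's test at the 95% level. For normally distributed values chance gives this in about 1 of 20 groups. Where only 1 library of a group was above 0, as for Cox6a2 and Cox7b2 below, the flag was fixed in advance. Cox7b2 also did not pass the filter on low counts. Low libraries were batch A Sox2-negative library 1 for Atp5g2 (127 CPM, others from 164), batch B Sox2-positive library 7 for Ndufa10 (137 CPM, others from 173) and library 5 of that group for Ndufa9 (93.3 CPM, others from 116). High ones in the same batch B group were library 1 for Cox4i2 (32.3 CPM) and Cox7a1 (1.01 CPM) and library 5 for Cox6b2 (30.9 CPM) and Cox7b2 (0.718 CPM, others at 0). In batch B Sox2-negative cells, library 4 was high for Atp5s (28.4 CPM, others up to 14.0) and library 3 for Ndufa12 (82.7 CPM). In batch A, Sox2-negative library 6 held the Cox6a2 counts of its group (3.76 CPM) and library 4 was high for Ndufa5 (245 CPM). Sox2-positive library 5 of batch A alone held Cox7b2 in its group (1.41 CPM). Library 3 there was high for Cox7c (246 CPM), for Atp5j2 (265 CPM, others from 172) and for the complex I sum (5387 CPM, others up to 4923), and library 1 there for Ndufv2 (300.3 CPM, others up to 269.7). Batch A Sox2-negative library 5 was low for Atp5j2 (216 CPM, others from 281) and Sdhd (91.8 CPM, others from 144), and library 6 high for Atp5h (533 CPM, others up to 456).

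The population difference itself differed between batches, by the interaction term of the edgeR fit, for 9 members. The log2 values, batch B minus batch A, were 1.11 for Sdhc, 0.93 for Ndufa12, 0.86 for Ndufa8, 0.68 for Uqcrb, 0.58 for Ndufb9, 2.17 for Ndufa4l2, -0.99 for Ndufaf4 and -0.52 for Atp5b. The value for Cox6a2, 11.03, is fitted against groups at 0 and is no size of change.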

How the results depend on the processing

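Among the settings tried, a called member became called in the opposite direction in 1 case, Uqcr11 in batch A with the length trend removed (0.25 in place of -0.30 on the log2 scale). Depth limits the muscle forms, such as Cox7a1 with at most 25 counts per library.

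Interaction calls (7 higher, 2 lower) numbered 14 higher with DESeq2 and 11 higher with a term for batch B libraries 1 and 2. They were 1 lower without the count filter. Without those libraries, an alternative chosen after seeing the data, they were 2 higher and 1 lower, and batch B gave 12 higher in place of 20. With the length trend removed, also chosen after seeing the data, they were 4 higher and 1 lower.

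For batch B against batch A in Sox2-negative cells (2 higher, 13 lower), limma gave 4 higher, DESeq2 23 lower, total-count scaling 1 higher and 28 lower, and the same without erythroid and mitochondrially encoded genes 1 and 21. No count filter gave 1 and 6, the term for libraries 1 and 2 gave 1 and 21, leaving those libraries out gave 1 and 5, and length-trend removal gave 4 higher. In Sox2-positive cells (2 lower), DESeq2, both total-count scalings and length-trend removal gave 4 lower, limma 5 and no count filter 1. Leaving out 1 library gave 1 to 3 lower for the interaction, 1 to 4 higher and 7 to 17 lower in Sox2-negative cells, and 1 to 3 lower in Sox2-positive cells. Without batch B Sox2-negative library 1 the batch B calls of Ndufv2, Ndufaf7, Ndufb4, Atp5j and Ndufa4l2 had adjusted p values of 0.055 to 0.11. Those of Ndufb9 and Ndufa4l2 between batches in Sox2-negative cells had 0.068 and 0.053. Without library 2 of that group Ndufb4 and Atp5j had 0.059 and 0.056. In batch A Ndufa9 had 0.056 and 0.052 without Sox2-negative library 1 or 2, and Atp5d 0.065 without library 3. The cause of these changes was not tested.

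The labels do not say that library numbers pair the samples. Same-numbered libraries of the 2 populations had correlations of -0.02 to 0.04, which are too weak to decide it. The library correlated best with its own number in 1 of 6 pairs in batch A and 0 of 4 in batch B. In batch B, Sox2-negative libraries 1 and 2 had correlations of 0.040 to 0.060 with Sox2-positive libraries 1 and 2. With the other Sox2-positive libraries of batch B they had -0.032 to 0.0005. With the number as a replicate block, batch A gave 11 higher and 48 lower, batch B 14 and 25, and the interaction 4 and 1.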
